A study of Mus musculus with 24 samples.

Results

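Bafilomycin A1 (BafA1) blocks the vacuolar proton pump, the V-ATPase, and the data described here ask how its effect on microglial RNA at 14 h of treatment differed from its effect at 7 h. For each gene the difference between BafA1 and DMSO cultures was taken at 14 h and the difference between BafA1 and DMSO cultures at 7 h was subtracted from it. This quantity is called the shift, and it is given on the log2 scale, so that a positive shift means that the ratio of BafA1 to DMSO was higher at 14 h than at 7 h. All 12648 genes that passed a count filter were tested, of 56980 in the table, and 12 of the 24 libraries enter the contrast.

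The cells were primary microglia of wild-type (WT) newborn mice, prepared from cortex and hippocampus and shaken off mixed glial cultures. The 4 groups were BafA1 for 14 h, DMSO for 14 h, BafA1 for 7 h and DMSO for 7 h, each with 3 libraries, and the BafA1 dose was 50 nM. DMSO was the vehicle, present at the same percentage in the control cultures. Groups treated for 1 h and 22 h exist as well and served to estimate the spread and to follow genes over time. The labels number the replicates but do not say that they came from separate animals or cultures, so the p-values measure the spread between these libraries, which may be in part technical.

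The V-ATPase pumps protons into lysosomes and endosomes, where acid is needed for hydrolases to work, for iron and cholesterol to leave the lumen, and for autophagosomes to be cleared. Microglia are the macrophages of the brain and depend on this route to digest what they take up. Pathways known to respond to lysosomal, nutrient or protein stress include the MiT/TFE factors for lysosomal genes, SREBP2 for sterol synthesis, HIF for oxygen and iron, NRF2 for oxidative stress, and the unfolded protein response (UPR) of the endoplasmic reticulum (ER).

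The libraries were 3′ tag libraries with molecular identifiers, and levels are given as TMM-normalized CPM (counts scaled to a common library size). Their totals lay between 1322169 counts in BafA1 7 h replicate 2 and 3994333 counts in BafA1 14 h replicate 2, and 3 counts, taken as the floor of detection, corresponded to 0.751 to 2.27 CPM. All 11 microglia defining markers were detected in all 12 libraries. Markers of other brain cells were present too: 17 oligodendrocyte lineage markers summed to 181 to 270 CPM in BafA1 cultures and 782 to 982 CPM in DMSO cultures at 14 h, and 613 to 665 CPM in BafA1 cultures and 928 to 1060 CPM in DMSO cultures at 7 h. The 15 astrocyte markers summed to 88.2 to 183 CPM in BafA1 cultures and 195 to 332 CPM in DMSO cultures at 14 h, and to 222 to 372 CPM in BafA1 cultures and 245 to 423 CPM in DMSO cultures at 7 h. Gjb6, an astrocyte connexin, had 0 counts, and Lyve1, a border macrophage marker, had 2 counts over the 12 libraries. DMSO 7 h replicates 1 and 2, with all 6 libraries of 1 h, stood apart from the other 16 in 28 genes of low level (median 5.81 CPM where present), which had 86 to 253 summed counts in these 8 libraries and 447 to 965 in the others. The 28 genes were picked for being lower in these 8 libraries than in every other, so the split of their counts is built in. Another 4 genes were higher in these 8 libraries than in every other. Of the 28 genes 21 had a lower shift and none a higher one, a direction that low values in DMSO 7 h replicates 1 and 2 favour. The counts over all genes, and those of the lists where so stated, are also given without both of these DMSO 7 h libraries. BafA1 7 h replicate 2, the shallowest library, lay at -65.9 on the second principal component, with the other 11 between -8.43 and 22.3.

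The BafA1 effect differed between 14 and 7 h in 891 genes, 7.04% of those tested (edgeR's quasi-likelihood test with the replicate number as a block, Benjamini-Hochberg adjusted p under 0.05). The shift was higher in 358 genes (2.83%) and lower in 533 genes (4.21%), and it exceeded 1 in size in 111 of the higher and 384 of the lower genes. The sign of the shift was the same in all 3 replicate numbers for 358 of 358 and 527 of 533 genes. These genes were called from the same libraries, so this agreement describes the calls and is no separate support for them. The median shift of all genes was -0.010. Without the replicate block 93 genes were higher and 193 lower, and without DMSO 7 h replicates 1 and 2 the counts were 121 and 175. They were 183 and 295 without BafA1 14 h replicate 2, the deepest library, and 239 and 369 without BafA1 7 h replicate 2, and 234 genes were higher without DMSO 7 h replicate 3. Just inside the threshold lay Lipa, a lysosomal lipase, with a shift of 0.36 and adjusted p = 0.0499, and just outside it Efr3a, with a shift of 0.49 and adjusted p = 0.0506.

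Most shifts were effects that were called at 14 h and not at 7 h. Of the 358 higher genes, 225 (62.8%) were called at 14 h only, with a median BafA1 effect of 0.79 at 14 h and -0.04 at 7 h. Another 96 genes (26.8%) were higher in BafA1 at both times and more so at 14 h, with medians of 1.72 at 14 h and 0.81 at 7 h. Of the 533 lower genes, 367 (68.9%) were called at 14 h only, with medians of -1.52 at 14 h and -0.07 at 7 h, and 92 (17.3%) were lower at both times and more so at 14 h. A smaller set was called at 7 h and not at 14 h. It held 50 of the lower genes (9.38%), with a median effect of -0.40 at 14 h and 1.70 at 7 h. Of these 50 genes, 19 belong to the 28 low genes that set the libraries apart, and these were low in DMSO 7 h replicates 1 and 2. The set also held 21 of the higher genes (5.87%), with medians of 0.27 at 14 h and -0.66 at 7 h. The comparison at 14 h by itself had 4166 calls (32.9%), with 15.8% of genes higher and 17.1% lower in BafA1, and that at 7 h had 1555 calls (12.3%), with 7.16% higher and 5.13% lower.

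**Figure D1:**
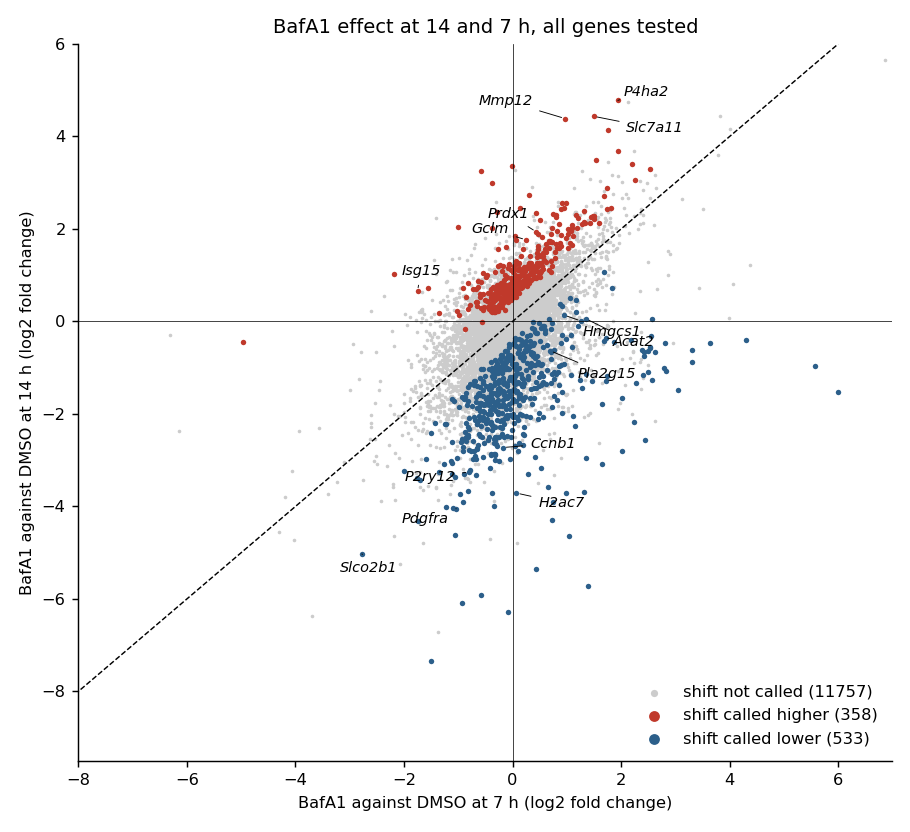
BafA1 effect on each of the 12648 genes tested, as the log2 fold change of BafA1 against DMSO at 7 h (x) and at 14 h (y); the dashed line marks equal effects. The 358 genes with a higher shift (red) lie above the line, mostly near 0 on the x axis, and the 533 with a lower shift (blue) lie below it and reach further from the line.

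The movement was mainly within the BafA1 cultures. From 7 to 14 h, 1764 genes (13.9%) changed in BafA1 cultures, 6.35% higher and 7.6% lower, and 0 in DMSO cultures by edgeR (995 at an unadjusted p under 0.05), while limma-voom called 1 and DESeq2 called 9 in DMSO cultures. Among the genes with a higher shift the median change from 7 to 14 h was 0.68 in BafA1 cultures and -0.16 in DMSO cultures, and among those with a lower shift it was -1.28 in BafA1 cultures and 0.15 in DMSO cultures. In 23 of the 358 and 58 of the 533 genes the DMSO change was larger in size than the BafA1 change. These values come from the same libraries as the shift and describe it.

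**Figure D2:**
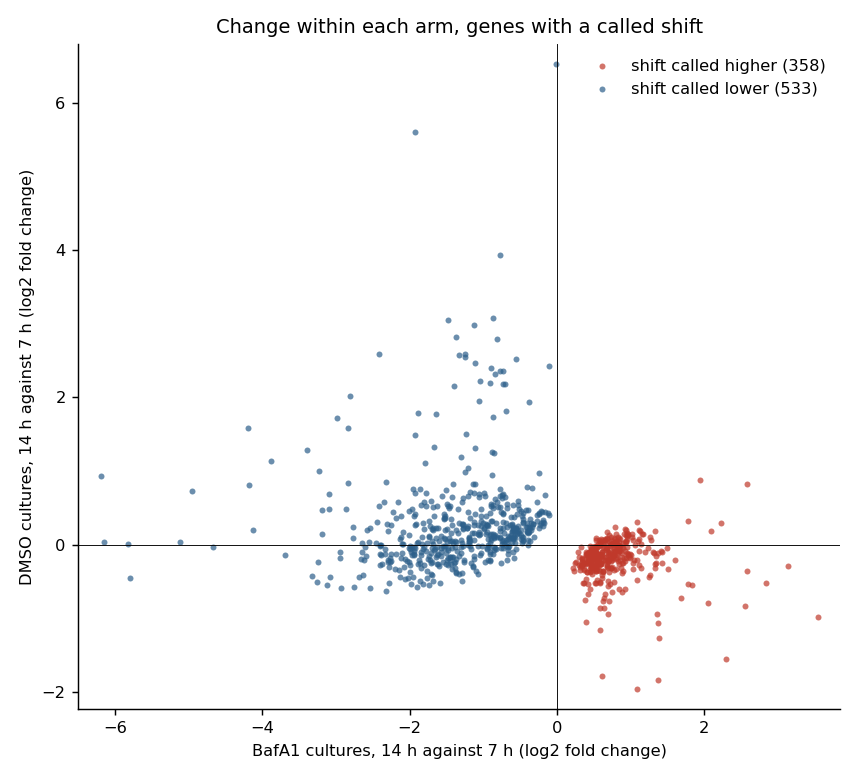
Log2 change from 7 to 14 h in BafA1 cultures (x) and in DMSO cultures (y) for the 891 genes with a called shift. Higher shifts (red) lie right of 0 and lower shifts (blue) at or left of 0 on the BafA1 axis, with DMSO values gathered around 0 apart from a group of lower-shift genes with DMSO values above 2.

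The genes with the largest higher shifts were led by Mmp12 and Procr. Mmp12, the macrophage elastase, had 671, 1080 and 754 CPM in BafA1 cultures and 34.9, 41.7 and 41.1 CPM in DMSO cultures at 14 h. At 7 h it had 66.0, 139 and 86.3 CPM in BafA1 cultures and 37.6, 63.8 and 44.4 CPM in DMSO cultures. The groups did not overlap at either time, and the effect grew to 4.39 at 14 h, with a shift of 3.42 ± 0.30 (SE; edgeR adjusted p = 1.14e-08). Procr, the endothelial protein C receptor, overlapped between BafA1 and DMSO at 7 h and was separated at 14 h, with a shift of 3.38 ± 0.47 (edgeR adjusted p = 2.95e-05). P4ha2, a collagen prolyl hydroxylase, had a shift of 2.84 ± 0.63 (edgeR adjusted p = 0.00488), which was not called without DMSO 7 h replicate 3 (2.37, adjusted p = 0.0569). Cxcl2, a neutrophil chemokine, had a shift of 1.91 ± 0.31, and Acod1, which makes itaconate, one of 1.76 ± 0.36, which without DMSO 7 h replicates 1 and 2 was 0.88 (edgeR adjusted p = 0.533). Rassf8 (1.68 ± 0.29) and the desmosome gene Pkp2 (1.81 ± 0.40) belonged to the same top group, and Pkp2 was separated between BafA1 and DMSO at 14 h only.

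NRF2 is a transcription factor that is released from KEAP1 under oxidative stress and binds antioxidant response elements. Of 25 NRF2 targets tested, 13 had a higher shift and none a lower one, against 2.83% and 4.21% of all genes; the median shift was 0.70 over the list and -0.010 over all genes. The median BafA1 effect was 1.00 at 14 h, with 18 targets called higher, and 0.38 at 7 h, with 10 called higher. The list held 11 higher members without the block, 11 without both DMSO 7 h libraries, and 11 to 14 when any 1 library was left out. The stretch with the element that NRF2 is known to bind is shown for the 5 members with a called shift whose RefSeq promoter (GRCm38.p6, 250 bases before to 50 after the start) holds the antioxidant response core TGACNNNGC, searched on both strands; the core or its reverse complement is in capitals in 30 bases of the gene's strand.
Gclm, chr3:122245413-122245442, plus strand: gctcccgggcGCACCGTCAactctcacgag
Prdx1, chr4:116685456-116685485, plus strand: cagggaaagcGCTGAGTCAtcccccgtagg
Srxn1, chr2:152105542-152105571, plus strand: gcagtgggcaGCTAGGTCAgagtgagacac
Txnrd1, chr10:82859104-82859133, plus strand: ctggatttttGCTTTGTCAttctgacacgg
Pgd, chr4:149166060-149166089, minus strand: atttcagagcTGACATTGCactgatcggac
The core was present in 9 of the 20 list members with a promoter in the table (45%), in 5 of the 9 of these with a called shift, in 22.3% of the 296 promoters of genes with a higher shift, in 16.5% of the 364 with a lower shift and in 17.1% of all 9152. A match is a string of letters and not a measured binding site.

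Several of the called NRF2 targets belong to the glutathione and thioredoxin systems. Gclm, a subunit of the rate-limiting enzyme of glutathione synthesis, had 441, 542 and 423 CPM in BafA1 cultures and 126, 154 and 133 CPM in DMSO cultures at 14 h. At 7 h the groups overlapped, with 155, 193 and 176 CPM in BafA1 cultures and 124, 174 and 146 CPM in DMSO cultures. The shift was 1.52 ± 0.15 (edgeR adjusted p = 1.4e-07), so that an effect of 1.76 ± 0.11 at 14 h stood against one of 0.25 ± 0.11 at 7 h. Slc7a11, the cystine importer that feeds this pathway, had 227, 243 and 204 CPM in BafA1 cultures and 8.09, 10.8 and 11.5 CPM in DMSO cultures at 14 h. It was already separated at 7 h, at 41.5, 28 and 41.8 CPM in BafA1 cultures and 12.0, 15 and 13.6 CPM in DMSO cultures, and its shift was 2.94 ± 0.34 (edgeR adjusted p = 1.48e-06). Gsr, glutathione reductase, had nearly equal levels at 7 h and a shift of 1.68 ± 0.21 (edgeR adjusted p = 7.13e-06).

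Prdx1, a thioredoxin-dependent peroxidase, had 3930, 4430 and 3750 CPM in BafA1 cultures and 1170, 1050 and 946 CPM in DMSO cultures at 14 h. Its levels at 7 h were 1580, 1580 and 1410 CPM in BafA1 cultures and 1200, 1120 and 1050 CPM in DMSO cultures, without overlap, and the shift was 1.5 ± 0.13 (edgeR adjusted p = 1.14e-08). Srxn1, which repairs oxidized peroxiredoxins, shifted by 1.45 ± 0.20, and Txnrd1, thioredoxin reductase, by 0.74 ± 0.18. Pgd, an NADPH source of the pentose phosphate pathway, had an effect of 0.89 ± 0.11 at 14 h and 0.00 ± 0.11 at 7 h. Hmox1, heme oxygenase, shifted by 1.3 ± 0.18. Sqstm1, the autophagy receptor p62 that also binds KEAP1, rose at both times, with 1980, 2320 and 1790 CPM in BafA1 cultures and 555, 531 and 480 CPM in DMSO cultures at 14 h, and a shift of 1.13 ± 0.12 (edgeR adjusted p = 2.11e-07). Srxn1, Txnrd1, Pgd and Hmox1 were picked after their values were seen, for their motif or role. Among the targets without a call were the NADPH-producing enzymes G6pdx and Me1, with shifts of 0.11 and 0.29, and of 6 peroxiredoxin genes, grouped after their values were seen, 2 had a higher shift (median 0.16).

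**Figure D3:**
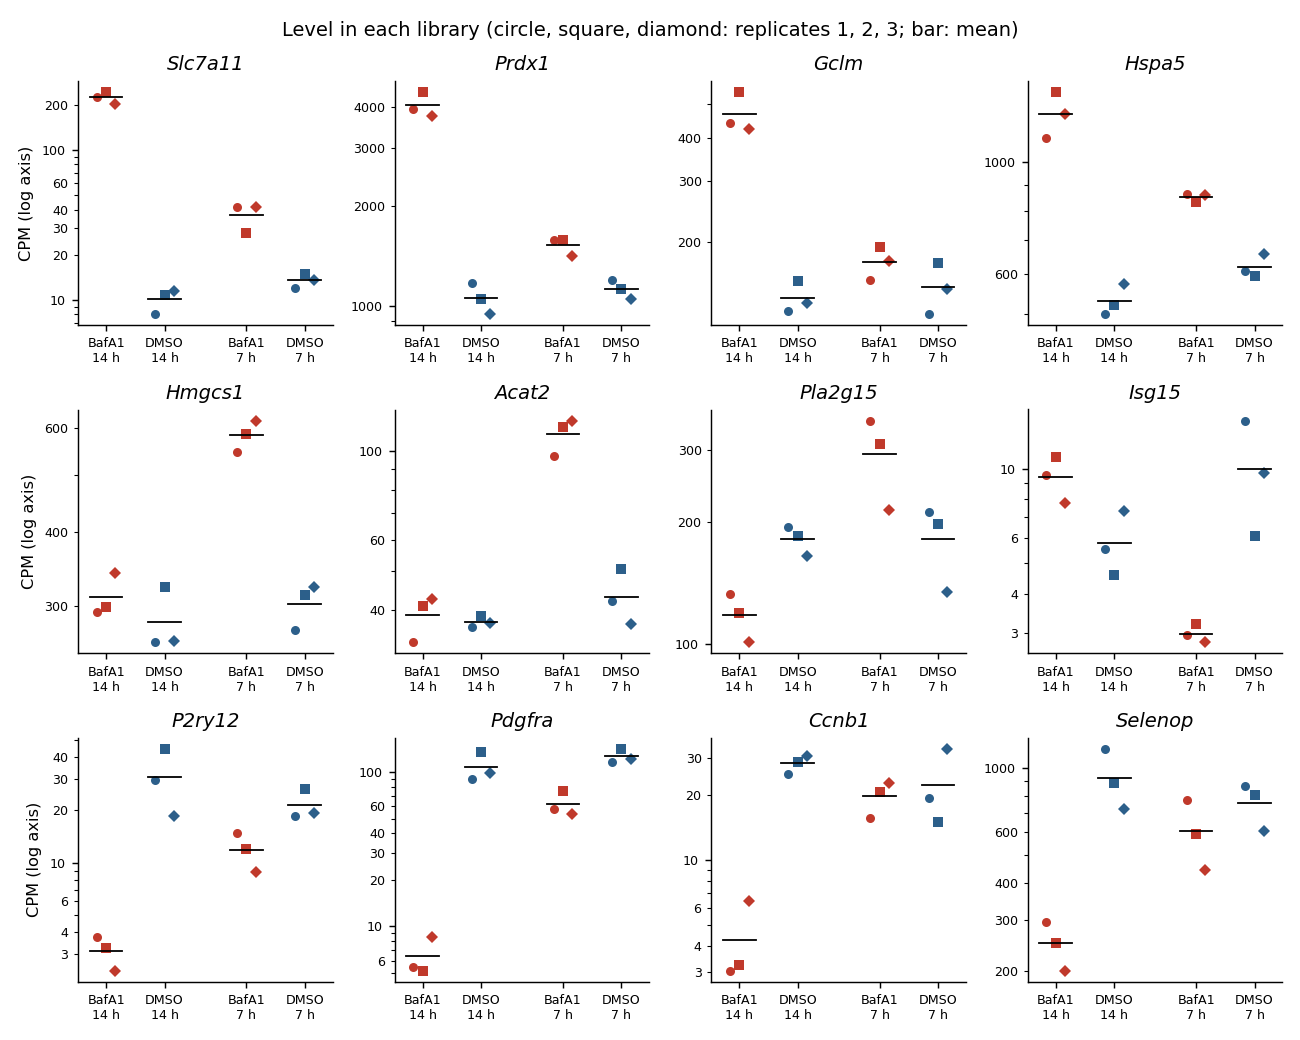
CPM on log axes in each of the 12 libraries for 12 genes, BafA1 (red) beside DMSO (blue) at 14 h and at 7 h; symbols mark the replicate number and bars the mean of 3. Slc7a11, Prdx1, Gclm and Hspa5 are highest in BafA1 at 14 h, Hmgcs1, Acat2 and Pla2g15 are highest in BafA1 at 7 h, and P2ry12, Pdgfra, Ccnb1 and Selenop are lowest in BafA1 at 14 h.

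Chaperones and folding enzymes of the ER shifted as often as the NRF2 targets. Of 25 genes tested, 13 had a higher shift and none a lower one, with a median shift of 0.65. At 7 h 3 members were higher in BafA1, with a median effect of 0.10, at 14 h 19 members with a median of 0.60, and at 22 h 25 of 25. Hspa5, the luminal chaperone BiP, had 1120, 1380 and 1250 CPM in BafA1 cultures and 500, 521 and 572 CPM in DMSO cultures at 14 h. The 7 h levels were 864, 834 and 860 CPM in BafA1 cultures and 608, 593 and 658 CPM in DMSO cultures, also without overlap, and the shift was 0.77 ± 0.12 (edgeR adjusted p = 0.000126). Hyou1, a nucleotide exchange factor for BiP, had 99.6 to 128 CPM in BafA1 cultures and 44.9 to 53.1 CPM in DMSO cultures at 14 h. The groups overlapped at 7 h, at 62.2 to 76.0 CPM in BafA1 cultures and 62.3 to 69.8 CPM in DMSO cultures, and the shift was 1.18 ± 0.21 (edgeR adjusted p = 0.000479). Calr, the lectin chaperone calreticulin, shifted by 0.71 ± 0.15, and Creld2, a disulfide isomerase, by 1.28 ± 0.40, a call that was lost in 10 of 12 omissions of a library.

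The ER stress response element, an NF-Y site spaced from an ATF6 site, is the textbook motif of these promoters, and its letters, CCAAT and CCACG with 9 bases of any kind between them, were searched on both strands after the values had been seen. It was found in 15 of 9152 promoters (0.164%), of which 8 belong to the 20 list members with a promoter in the table (40%). Of the 296 genes with a higher shift 5 held it (1.69%), all of them members of the list, and 0 of the 364 with a lower shift. The 5 are shown with the element or its reverse complement in capitals, in 30 bases of the gene's strand; for Hsp90b1 the more distal of its matches is given.
Hspa5, chr2:34772020-34772049, plus strand: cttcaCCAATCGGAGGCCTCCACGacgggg
Hsp90b1, chr10:86705632-86705661, minus strand: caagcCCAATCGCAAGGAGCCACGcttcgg
Calr, chr8:84847069-84847098, minus strand: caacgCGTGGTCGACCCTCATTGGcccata
Pdia6, chr12:17266486-17266515, plus strand: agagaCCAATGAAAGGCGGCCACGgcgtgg
Creld2, chr15:88819515-88819544, plus strand: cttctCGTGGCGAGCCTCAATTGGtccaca
Canx, Dnajc3 and Syvn1 also hold it and their shifts of 0.33, 0.60 and 0.29 were not called. Hspa5, Hsp90b1, Calr and Pdia6 were picked after their values were seen; Hsp90b1 (0.55 ± 0.15) and Pdia6 (0.53 ± 0.15) lost their call in 3 and 6 of 12 omissions. The list count was 6 without the block, 6 without both DMSO 7 h libraries, 8 with either DMSO 7 h replicate 1 or BafA1 7 h replicate 2 left out, and 7 with BafA1 14 h replicate 2 left out.

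The integrated stress response, in which phosphorylation of eIF2α raises translation of ATF4, had 6 of 19 regulators with a higher shift and 1 with a lower one, and a median shift of 0.78. Ddit3, the pro-apoptotic factor CHOP, had 44.2, 77.9 and 72.1 CPM in BafA1 cultures and 9.60, 7.08 and 16.2 CPM in DMSO cultures at 14 h. At 7 h it had 25.4, 28 and 37.7 CPM in BafA1 cultures and 12.9, 14.1 and 18.9 CPM in DMSO cultures, so the groups were apart at both times, and the shift was 1.56 ± 0.35 (edgeR adjusted p = 0.00595, and 0.0932 without the block). Atf3, the member that went the other way, shifted by -0.61 ± 0.18 and remained higher in BafA1 at 14 h (1.08 ± 0.12). Slc38a2, a neutral amino acid transporter, shifted by 0.98 ± 0.15 and Mthfd2, a mitochondrial one-carbon enzyme, by 1.12 ± 0.25. The higher count of this list was 0 without the block, 2 without both DMSO 7 h libraries, 2 with BafA1 14 h replicate 2 left out, and 3 when the library left out was replicate 3 of either 7 h group or DMSO 14 h replicate 1, and the call for Atf3 was lost in 8 of 12 omissions.

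Genes of glycolysis and of the HIF response were higher in BafA1 already at 7 h, and part of them rose further. Of 20 glycolysis genes, 7 had a higher shift and 1 a lower one (median 0.46), and 16 were higher in BafA1 at 14 h and 14 at 7 h. Of 29 hypoxia and HIF targets, 7 had a higher shift and none a lower one (median 0.31), with median effects of 1.37 at 14 h and 1.11 at 7 h. Pgk1, phosphoglycerate kinase, had 1560, 1480 and 1250 CPM in BafA1 cultures and 315, 302 and 287 CPM in DMSO cultures at 14 h. It had, at 7 h, 655, 701 and 625 CPM in BafA1 cultures and 295, 298 and 268 CPM in DMSO cultures, and its shift was 1.04 ± 0.12 (edgeR adjusted p = 1.59e-06). Pkm, pyruvate kinase, shifted by 0.94 ± 0.12, and Hilpda, an inhibitor of lipolysis at lipid droplets, by 1.21 ± 0.28. Aldoc, an aldolase that astrocytes express and that counts among their markers here, was the 1 glycolysis gene with a lower shift (-1.62 ± 0.22). The HIF core ACGTG was found in 29.9% of all promoters, 70.8% of those of the hypoxia list and 68.4% of those of the glycolysis list. The glycolysis count was 3 without the block and 4 without both DMSO 7 h libraries; the hypoxia count was 1 in both cases and 4 when replicate 2 of either 14 h group or DMSO 7 h replicate 3 was left out.

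Lysosomal gene lists had small median shifts. Of 18 V-ATPase subunits, 16 were higher in BafA1 at 14 h and 14 at 7 h, and 2 had a higher shift, the accessory subunits Atp6ap1 (0.78 ± 0.22) and Atp6ap2 (0.60 ± 0.18). Of 53 lysosomal enzymes and membrane proteins, 9 had a higher shift and 1 a lower one, with a median shift of 0.14. Ctsz, the carboxypeptidase cathepsin Z, shifted by 0.66 ± 0.17, and Gla, α-galactosidase A, by 0.72 ± 0.20. Ctsh, the aminopeptidase cathepsin H, went the other way, with 185, 176 and 130 CPM in BafA1 cultures and 339, 359 and 270 CPM in DMSO cultures at 14 h, and a shift of -0.68 ± 0.16 (edgeR adjusted p = 0.00605, and 0.283 without the block). The 7 h cultures had 219, 242 and 141 CPM in BafA1 cultures and 250, 287 and 195 CPM in DMSO cultures, and the groups overlapped. Of 36 autophagy genes 2 had a higher shift, and of 29 MiT/TFE and nutrient sensing genes 1 was higher and 1 lower. Over all genes 2.83% had a higher and 4.21% a lower shift, so these counts lie near the background. Without the block the higher count was 0 for the V-ATPase subunits and for the lysosomal enzymes and membrane proteins, against 2 and 1 for the autophagy and the nutrient sensing genes. The V-ATPase count was also 0 without both DMSO 7 h libraries and 0 to 2 when 1 library was left out, and the lysosomal enzyme count was 3 without both DMSO 7 h libraries, 4 with BafA1 7 h replicate 1 or BafA1 14 h replicate 2 left out and 5 with DMSO 14 h replicate 2 left out. The calls for Atp6ap1, Atp6ap2, Gla and Ctsz were lost in 6, 9, 4 and 2 of 12 omissions.

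**Figure D4:**
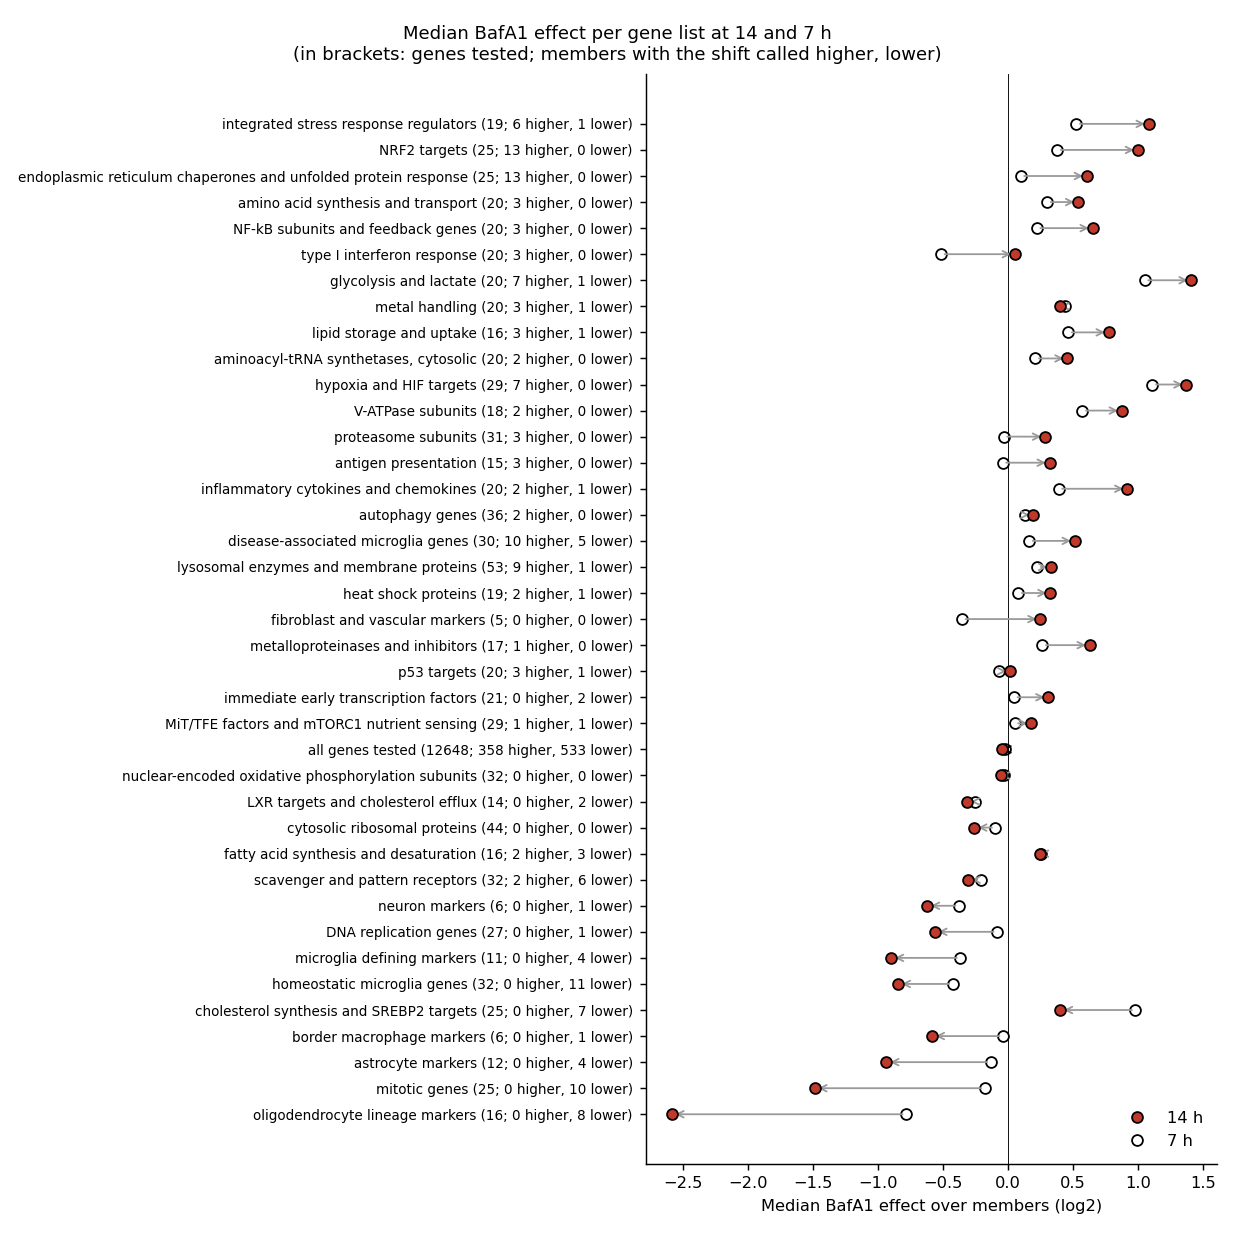
Median log2 BafA1 effect over the tested members of each of 38 gene lists and of all genes, at 14 h (red) and 7 h (open), sorted by the median shift; brackets give the genes tested and the members with a called shift. The NRF2, ER and stress response lists lie further right at 14 h, the sterol list lies nearer 0, and the oligodendrocyte and mitotic lists lie furthest left.

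Sterol synthesis genes were higher in BafA1 at 7 h, and for part of them the effect was smaller or no longer called at 14 h. Of 25 cholesterol synthesis and SREBP2 target genes, 7 had a lower shift and none a higher one (median -0.54). BafA1 raised 19 of them at 7 h (median 0.98) and 12 at 14 h (median 0.40), while at 22 h 4 were higher and 8 lower. Hmgcs1, HMG-CoA synthase, had 293, 299 and 341 CPM in BafA1 cultures and 261, 324 and 262 CPM in DMSO cultures at 14 h, which overlap. At 7 h it had 547, 586 and 618 CPM in BafA1 cultures and 274, 313 and 323 CPM in DMSO cultures, and its shift was -0.81 ± 0.14 (edgeR adjusted p = 0.000425). Acat2, which makes acetoacetyl-CoA for this pathway, had 33.3, 41.0 and 42.6 CPM in BafA1 cultures and 36.4, 38.7 and 37.2 CPM in DMSO cultures at 14 h. Its levels at 7 h were 97.3, 115 and 119 CPM in BafA1 cultures and 42.2, 50.6 and 36.9 CPM in DMSO cultures, and the shift was -1.29 ± 0.24 (edgeR adjusted p = 0.00116).

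Fdps, farnesyl diphosphate synthase, was picked after its values were seen and shifted by -0.97 ± 0.23. Acsl3, an acyl-CoA synthetase of lipid droplets, had 63.9, 63.2 and 89.5 CPM in BafA1 cultures and 74.8, 72.5 and 85.0 CPM in DMSO cultures at 14 h. It had 189, 244 and 176 CPM in BafA1 cultures and 83.8, 74.5 and 105 CPM in DMSO cultures at 7 h, with a shift of -1.3 ± 0.23 (edgeR adjusted p = 0.000518). Lpin1, a phosphatidate phosphatase, shifted by -1.36 ± 0.29 (edgeR adjusted p = 0.00353). Of 16 fatty acid synthesis and desaturation genes 3 had a lower and 2 a higher shift; without the block, and likewise without both DMSO 7 h libraries, 1 was lower and 0 higher, and leaving out 1 library gave 2 or 3 lower and 0 to 2 higher, with 0 without DMSO 7 h replicate 1. The sterol count was 2 without the block or without both DMSO 7 h libraries, and 4 without any 1 of BafA1 7 h replicates 2 and 3, DMSO 14 h replicate 3 and BafA1 14 h replicates 2 and 3.

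A small set of genes was called in opposite directions at 14 and 7 h, 4 with a higher and 6 with a lower shift. Pla2g15, the lysosomal phospholipase A2, had 133, 119 and 101 CPM in BafA1 cultures and 194, 184 and 165 CPM in DMSO cultures at 14 h. At 7 h it had 355, 310 and 214 CPM in BafA1 cultures and 211, 198 and 134 CPM in DMSO cultures. The groups were apart both times, with effects of -0.63 ± 0.10 at 14 h and 0.69 ± 0.10 at 7 h and a shift of -1.32 ± 0.15 (edgeR adjusted p = 8.94e-07). Myh10, a non-muscle myosin heavy chain, shifted by -1.86 ± 0.33, and Usp2, a deubiquitinase, by -1.39 ± 0.29. Arrb1, β-arrestin 1, was higher in BafA1 at 14 h (0.47 ± 0.13) and lower at 7 h (-0.51 ± 0.15). Btg1, an anti-proliferative gene, was called in the same directions, with a shift of 0.75 ± 0.15. BafA1 and DMSO libraries overlapped at both times for Btg1, at 7 h for Usp2 and at 14 h for Myh10, and were apart at both times for Arrb1. The calls for these 5 genes were kept in all 12 omissions of a library; without the block those for Usp2 and Btg1 were lost (edgeR adjusted p = 0.073 and 0.24).

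**Figure D5:**
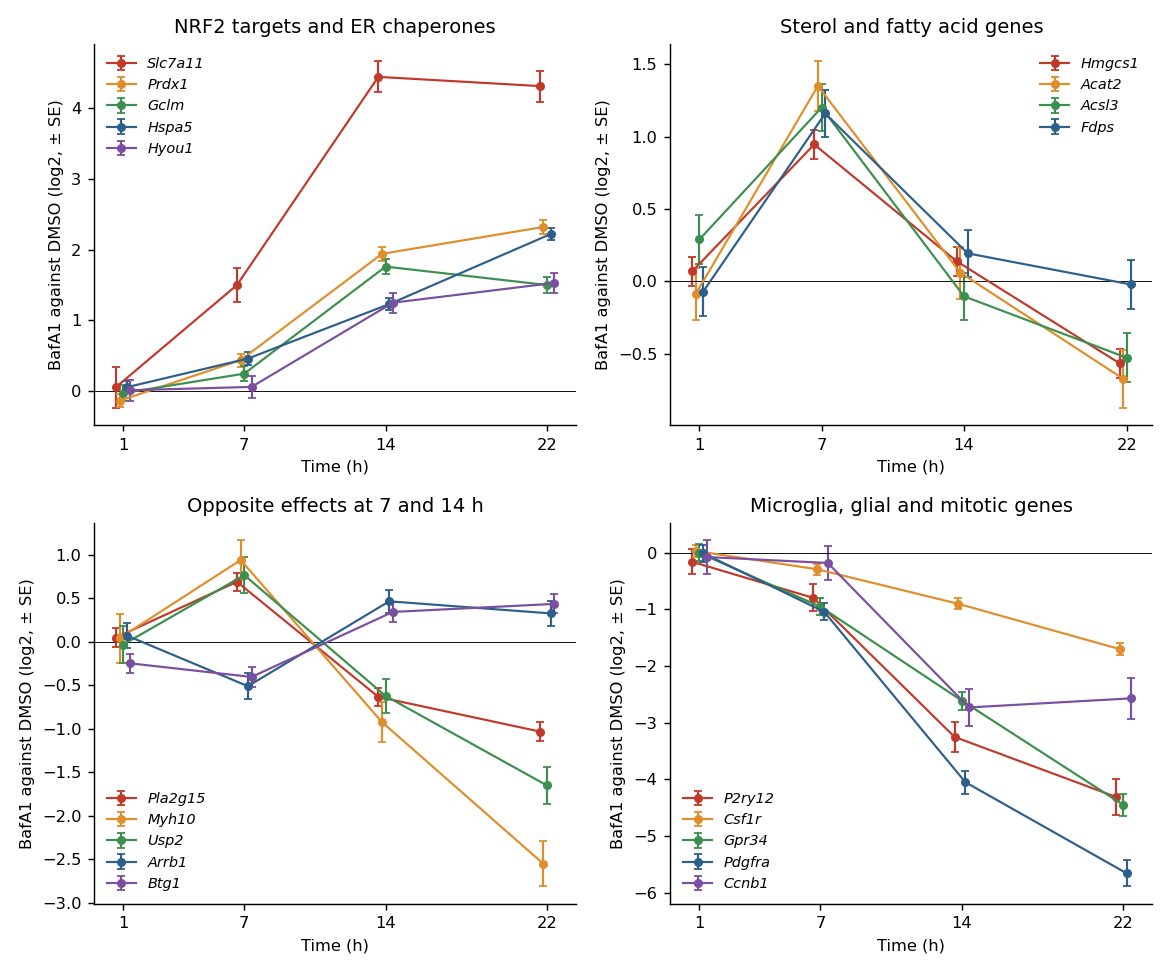
Log2 BafA1 effect ± SE at 1, 7, 14 and 22 h for 19 genes in 4 panels, from a fit with 3 libraries per group. NRF2 targets and ER chaperones climb after 7 h, sterol and fatty acid genes peak at 7 h, the 5 genes of opposite effect cross 0 between 7 and 14 h, and microglia, glial and mitotic genes fall to 14 h, with all but Ccnb1 lower still at 22 h.

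Inflammatory lists had 2 or 3 members each with a higher shift, against 2.83% of all genes. Of 20 cytokines and chemokines 2 had a higher and 1 a lower shift; the higher count was 4 without DMSO 7 h replicate 1, 1 without the block or without both DMSO 7 h libraries and 1 in 5 other omissions of a library, and the lower count was 0 in 9 of 12 omissions. Of 20 NF-kB subunits and feedback genes 3 were higher, 2 without the block and 1 without both DMSO 7 h libraries. Sod2, mitochondrial superoxide dismutase and an NF-kB target, shifted by 0.73 ± 0.12 (edgeR adjusted p = 0.000396). Of 20 type I interferon response genes 3 had a higher shift, 1 without the block and 2 without both DMSO 7 h libraries, and the median effect of the list was 0.05 at 14 h and -0.52 at 7 h. Isg15, a ubiquitin-like interferon target, had 9.52, 10.9 and 7.77 CPM in BafA1 cultures and 5.56, 4.58 and 7.32 CPM in DMSO cultures at 14 h. Its levels at 7 h were 2.96, 3.20 and 2.81 CPM in BafA1 cultures, near the floor, and 14.2, 6.09 and 9.66 CPM in DMSO cultures, and the shift was 2.4 ± 0.56 (edgeR adjusted p = 0.00789). Bst2, tetherin, shifted by 1.58 ± 0.33 (edgeR adjusted p = 0.00287), and Slfn2 by 0.80 ± 0.20. At 22 h 12 members of the list were lower in BafA1 and 2 higher. Egr1, an immediate early transcription factor, shifted by -1.46 ± 0.32 (edgeR adjusted p = 0.00427).

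Many genes that mark resting microglia were lower in BafA1, and the deficit of part of them was larger at 14 h than at 7 h. Of 32 homeostatic microglia genes, 11 had a lower shift and none a higher one (median -0.50); 22 were lower in BafA1 at 14 h and 17 at 7 h. P2ry12, the ADP receptor that guides microglial processes, had 3.74, 3.26 and 2.41 CPM in BafA1 cultures and 29.8, 44.6 and 18.5 CPM in DMSO cultures at 14 h. Its levels at 7 h were 14.8, 12.0 and 8.83 CPM in BafA1 cultures and 18.5, 26.3 and 19.3 CPM in DMSO cultures, without overlap, and the shift was -2.46 ± 0.37 (edgeR adjusted p = 7.63e-05). Gpr34, a lysophosphatidylserine receptor, shifted by -1.66 ± 0.23 and Aif1, which encodes IBA1, by -1.34 ± 0.17. Csf1r, the receptor microglia need to survive, shifted by -0.61 ± 0.15, which was not called without BafA1 14 h replicate 2 (-0.52, adjusted p = 0.0508). Entpd1, the ATP-degrading ectoenzyme CD39, was higher in BafA1 at 7 h (1.08 ± 0.16) and had a shift of -1.36 ± 0.23. Slco2b1, an organic anion transporter of microglia, had 4.76, 2.71 and 4.82 CPM in BafA1 cultures and 137, 154 and 113 CPM in DMSO cultures at 14 h, with a shift of -2.25 ± 0.35 (edgeR adjusted p = 0.000119). The homeostatic count was 3 without the block, 5 without both DMSO 7 h libraries, 7 with DMSO 7 h replicate 1 left out and 6 with DMSO 14 h replicate 3 or BafA1 14 h replicate 2 left out.

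The disease-associated microglia list, genes induced around plaques in mouse models, was divided, with 10 of 30 members higher and 5 lower in shift. Gpnmb, a lysosomal glycoprotein that MiT/TFE factors induce, had 1680, 1780 and 1650 CPM in BafA1 cultures and 387, 284 and 278 CPM in DMSO cultures at 14 h. The 7 h levels were 573, 545 and 672 CPM in BafA1 cultures and 377, 348 and 259 CPM in DMSO cultures, and its shift was 1.54 ± 0.30 (edgeR adjusted p = 0.00164). Lgals3, galectin 3, which binds damaged lysosomes, shifted by 1.15 ± 0.25, and Cd9, a tetraspanin, by 0.92 ± 0.13. The 5 lower members, Apoe, Axl, Ank, Ccl6 and Serpine2, named because there were few, shifted by -0.91 to -0.47, and the call for Apoe was lost in 7 of 12 omissions. Higher calls numbered 2 and lower calls 0 without the block, and 5 and 0 without both DMSO 7 h libraries; leaving out any 1 library left 7 to 11 higher and 1 to 4 lower calls.

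Part of the genes of cell division had a larger deficit in BafA1 at 14 h than at 7 h. Of 25 mitotic genes, 10 had a lower shift and none a higher one (median -1.22); 17 were lower in BafA1 at 14 h and 3 at 7 h. Ccnb1, cyclin B1, had 3.06, 3.26 and 6.43 CPM in BafA1 cultures and 25.3, 28.7 and 30.6 CPM in DMSO cultures at 14 h. It overlapped at 7 h, with 15.7, 20.8 and 22.9 CPM in BafA1 cultures and 19.4, 15 and 32.9 CPM in DMSO cultures, and the shift was -2.55 ± 0.45 (edgeR adjusted p = 0.00052). Cenpa, the centromeric histone H3 variant, shifted by -2.47 ± 0.36 (edgeR adjusted p = 5.92e-05). Of 27 DNA replication genes 1 had a lower shift, against 4.21% of all genes, with a list median of -0.44. This call was lost without the block. It was also lost without any 1 of DMSO 7 h replicate 3, BafA1 7 h replicate 2, DMSO 14 h replicate 3 and BafA1 14 h replicate 3. The largest lower shift by the naming rule was that of H2ac7, a replication-dependent histone H2A gene (-3.78 ± 0.49). Among histones that met this rule H2ac11 followed (-2.76 ± 0.52). Some other H2A genes, which did not meet it, had larger lower shifts, down to -7.12 ± 1.6. In BafA1 cultures at 14 h H2ac7 had 0.68, 1.63 and 2.14 CPM and H2ac11 had 0.68, 2.71 and 3.75 CPM. Both lay below the floor of 0.934 CPM in replicate 1, so the sizes of these shifts are uncertain. Near-identical copies of these genes also share reads, which makes their single values uncertain. In bulk RNA, fewer cells of a kind and less RNA per cell cannot be told apart, for dividing cells as for the other cell types below. The mitotic count was 3 without the block, 4 without both DMSO 7 h libraries and 5 without BafA1 14 h replicate 2.

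Markers of other brain cells also shifted lower. Of 16 oligodendrocyte lineage markers 8 had a lower shift and none a higher one (median -1.64), and 14 were lower in BafA1 at 14 h and 7 at 7 h. Pdgfra, the receptor of oligodendrocyte precursors, had 5.44, 5.16 and 8.58 CPM in BafA1 cultures and 90.0, 134 and 99.3 CPM in DMSO cultures at 14 h. At 7 h it had 58.0, 75.2 and 53.4 CPM in BafA1 cultures and 116, 141 and 122 CPM in DMSO cultures, and the shift was -3.01 ± 0.26 (edgeR adjusted p = 9.69e-09). Cspg5 (-2.77 ± 0.25) and Olig1 (-2.39 ± 0.28) moved with it. Of 12 astrocyte markers 4 had a lower shift (median -0.87), among them Slc1a2, a glutamate transporter, by -1.29 ± 0.28, and of 6 neuron markers Map2 did (-1.29 ± 0.24). The oligodendrocyte count was 8 without the block and 6 without both DMSO 7 h libraries, and the astrocyte count was 3 in both cases.

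Several lower shifts outside these lists were in genes best known from neural cells. Of the genes below, Ctnna2, Grm5 and Nlgn3 were among the 12 largest by the naming rule, and not all of those 12 are described here. Cntn1, a neuronal and glial adhesion molecule, had the smallest p of all genes, with 43.5, 41.2 and 49.3 CPM in BafA1 cultures and 274, 369 and 334 CPM in DMSO cultures at 14 h, and a shift of -2.47 ± 0.16 (edgeR adjusted p = 6.24e-11). It had, at 7 h, 303, 272 and 273 CPM in BafA1 cultures and 360, 394 and 364 CPM in DMSO cultures. Nnat (-2.06 ± 0.15), the reticulon gene Rtn1 (-2.23 ± 0.20), the α-catenin gene Ctnna2 (-3.34 ± 0.38), the glutamate receptor gene Grm5 (-2.65 ± 0.32) and the neuroligin gene Nlgn3 (-2.85 ± 0.54) shifted the same way. The summed oligodendrocyte lineage markers given above fell alongside, and the part of those cells in these values was not tested. Nlgn3 lay near the floor in BafA1 cultures at 14 h, at 1.36, 3.8 and 0.536 CPM. Selenop, the secreted selenium carrier, had 295, 250 and 200 CPM in BafA1 cultures and 1160, 887 and 723 CPM in DMSO cultures at 14 h, and a shift of -1.55 ± 0.14 (edgeR adjusted p = 1.3e-08). It overlapped at 7 h, with 777, 593 and 446 CPM in BafA1 cultures and 865, 807 and 604 CPM in DMSO cultures. Mrc1, the mannose receptor of border macrophages, shifted by -1.44 ± 0.26 and was the 1 called member of the 6 border macrophage markers tested, which had a median shift of -0.67 and 4 members lower at an unadjusted p under 0.05. All 11 such markers summed to 810 to 1070 CPM in BafA1 cultures and 862 to 1020 CPM in DMSO cultures at 14 h, and to 810 to 974 CPM in BafA1 cultures and 733 to 873 CPM in DMSO cultures at 7 h. Ms4a7, with a shift of -0.05, held most of these counts (17813 over the 12 libraries).

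The lists of oxidative phosphorylation subunits and of ribosomal proteins had no member with a called shift. Of 32 nuclear-encoded oxidative phosphorylation subunits none had a called shift by edgeR, limma-voom or DESeq2, with 3 higher and 1 lower at an unadjusted p under 0.05 and a median of -0.013. Of 44 cytosolic ribosomal protein genes none was called by these tools either, with 1 higher and 7 lower at an unadjusted p under 0.05 and a median of -0.17. These zeros did not hold in every omission: 5 ribosomal protein genes were lower and 1 higher without BafA1 14 h replicate 1, 4 were lower without DMSO 14 h replicate 2, and of the oxidative phosphorylation subunits 2 were higher without BafA1 7 h replicate 3 and 1 lower without BafA1 14 h replicate 1. In the comparison at 14 h by itself 23 of the 44 ribosomal protein genes were lower in BafA1 (median effect -0.26), against 17.1% of all genes. At 7 h 0 of them were called (median effect -0.10). Of the oxidative phosphorylation subunits 1 was higher and 3 lower at 14 h, and 2 were lower at 7 h. The list counts that follow stand against 2.83% of all genes with a higher shift and 4.21% with a lower one, and several lie near these shares. Proteasome subunits had 3 of 31 higher. Of the heat shock proteins, 2 of 19 were higher and 1 lower, with Hspa9, the mitochondrial HSP70, at 0.96 ± 0.18 (edgeR adjusted p = 0.00135). Among metal handling genes 3 of 20 were higher and 1 lower; Tfrc, the transferrin receptor, shifted by 0.83 ± 0.20 (edgeR adjusted p = 0.00911). Lipid storage and uptake genes had 3 of 16 higher and 1 lower, p53 targets 3 of 20 higher and 1 lower, antigen presentation genes 3 of 15 higher, amino acid synthesis and transport genes 3 of 20 higher, and cytosolic aminoacyl-tRNA synthetases 2 of 20 higher. Scavenger and pattern receptors had 2 of 32 higher and 6 lower, LXR targets 2 of 14 lower, immediate early factors 2 of 21 lower, metalloproteinases and inhibitors 1 of 17 higher, and of 5 fibroblast and vascular markers none was called by edgeR or DESeq2 and 1 was higher by limma-voom. Most of these small counts changed when single libraries were left out, and without both DMSO 7 h libraries the higher count was 0 for the proteasome, metal handling, antigen presentation and aminoacyl-tRNA synthetase lists.

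The direction of the shift was kept at 22 h for most genes. Of the 358 genes with a higher shift 311 were higher in BafA1 at 22 h and 3 lower, and of the 533 with a lower shift 464 were lower and 4 higher, while the 22 h comparison had calls for 47.3% of the genes tested, with 21.3% in the higher and 26.0% in the lower direction. The median BafA1 effect at 22 h was 1.05 for the higher and -2.16 for the lower genes. The 22 h libraries are separate from those of the contrast, although a gene with an effect at 14 h needs no shift to have one at 22 h.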

How the data were processed

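Expected counts per gene were deposited by the authors as 1 table, made with Salmon and GRCm39 per the submitters' processing notes; no source used here gives the Salmon version or how molecular identifiers were collapsed. Of the values above 0, 37.1% were not whole, and counts were rounded. Groups came from the labels. edgeR 4.0.16 (R 4.3.3) was fitted to all 24 libraries with filterByExpr, TMM scaling, 8 groups and the replicate number as a block; genes left out held 0.701% of counts. Quasi-likelihood p-values were Benjamini-Hochberg adjusted over 12648 genes and called under 0.05. CPM are TMM-normalized. Log2 CPM, used for the principal components and the shifts per replicate number, take a prior count of 2, while the fitted effects were left at edgeR's own setting. A symbol was shared with another gene by 293 identifiers. The block was used because same-numbered libraries deviated together: in all 18 pairs of groups the correlation of deviations from the group means exceeded 0.1 (0.147 to 0.542, over 4707 genes). limma 3.58.1 and DESeq2 1.42.0 were alternatives, with RLE scaling, other filters, thinning, the 12 libraries alone, no block and leaving out each library. On simulated data the contrast recovered 43% of 100 genes changed 2-fold and 86% of 100 changed 4-fold, and 5.84% of 137 calls were unchanged genes. The simulated counts were independent between libraries, with no replicate effect and no split of libraries. Changes were put into the BafA1 14 h group only, and genes of low level were not changed. These shares therefore need not hold for the real libraries.

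The genes named are, among called shifts, the 12 largest each way, up to 3 called members per list and 5 per pattern by p. The 12 largest had to average log2 CPM 3 or more and keep 1 sign in all 3 replicate numbers. The pattern genes had to meet the level only, and the list members neither. Isg15, a list member, averaged log2 CPM 2.82, and Atf3, named by pattern, kept its sign in 2 of 3 replicate numbers. Other exceptions are marked where they appear. Some genes this rule picks are not reported here. The contrast, the members and the 38 lists were chosen with earlier results of these data known, and nothing here is independent support of them.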

Additional observations from a re-analysis of the deposited data

Results flagged for a closer look

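The BafA1 effect was called in opposite directions at 14 and 7 h, with the difference itself tested as the shift, in 5 of the named genes. The shift was 0.975 for Arrb1 and 0.747 for Btg1, which were higher in BafA1 at 14 h and lower at 7 h. It was -1.32 for Pla2g15, -1.39 for Usp2 and -1.86 for Myh10, which were lower in BafA1 at 14 h and higher at 7 h.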

How the results depend on the processing

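The shift counts, 358 higher and 533 lower, were 93 and 193 without the replicate block and 121 and 175 without DMSO 7 h replicates 1 and 2, a setting added after the data were seen. Leaving out 1 library gave 183 to 434 higher and 295 to 691 lower genes, with the lowest counts without BafA1 14 h replicate 2 and 234 higher without DMSO 7 h replicate 3. Fitted to the 12 libraries alone, the contrast called 828 lower genes and 500 higher ones. The counts stayed within 1.5 times of these values under RLE scaling, other filters, limma-voom, DESeq2, thinning and without the low genes that set libraries apart. At 7 h 903 genes were called without the block and 460 without both DMSO 7 h libraries, against 1555. In BafA1 cultures 964 genes changed from 7 to 14 h without the block, and 1088 to 1775 when 1 library was left out. In DMSO cultures the count of 0 became 9 with the 12 libraries alone, 52 without a filter, 1 with limma-voom, 9 with DESeq2, 1 after thinning and 0 to 16 when 1 library was left out. Of 79 genes named with a called shift, 0 reversed under any setting; 68 kept the call in all 12 omissions, 57 were called without the block and 58 without both DMSO 7 h libraries. The 79 leave out Lipa, Axl, Ank, Ccl6, Serpine2 and the genes of the next section, which were not followed singly through the settings. Axl, Ank, Ccl6 and Serpine2 belong to the disease-associated list, whose lower count was 0 without the block. Those of the 79 not called without the block were Creld2, Hsp90b1, Pdia6, Ddit3, Atf3, Hilpda, Lgals3, Atp6ap1, Atp6ap2, Gla, Ctsz, Ctsh, Bst2, Slfn2, H2ac11, Fdps, Csf1r, Entpd1, Apoe, Usp2, Btg1 and Hspa9 (edgeR adjusted p 0.0504 to 0.332). The shallowest library, BafA1 7 h replicate 2, limits what can be read of genes near 2.27 CPM.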

Other observations

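Genes of the secretory route next to the ER lists, grouped by symbol after their values were seen, had shifts in the same direction. Of 23 ER translocon and oligosaccharyltransferase genes 8 had a higher shift and none a lower one (median 0.32), with a median BafA1 effect of 0.29 at 14 h and -0.14 at 7 h. Ssr3, a subunit of the translocon-associated complex, shifted by 0.74 ± 0.16, and Rpn1, of the oligosaccharyltransferase, by 0.91 ± 0.20 (edgeR adjusted p = 0.00519 and 0.0042). Of 9 Tmed cargo receptors 4 were higher (median 0.49), among them Tmed10 (0.55 ± 0.13), and of 18 COPII and COPI coat genes 4 were higher (median 0.33), among them Sec24d (0.94 ± 0.18). Of 8 annexins, calcium-dependent membrane-binding proteins, 3 were higher: Anxa2 (1.17 ± 0.16), Anxa4 (1.05 ± 0.21) and Anxa5 (0.82 ± 0.13).

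On the lower side, 5 of 6 neurexins and neuroligins, adhesion molecules of synapses that oligodendrocyte precursors and astrocytes also express, had a lower shift (median -1.46). Of 3 complement C1q genes tested 2 had a lower shift, and C1qa was not called. C1qb and C1qc, subunits of the complement starter that microglia make, shifted by -0.67 ± 0.14 and -0.69 ± 0.13, and their effects were -0.97 and -1.07 at 14 h. Of 13 H2A histone genes 10 had a lower shift (median -2.76), with a median BafA1 effect of -2.64 at 14 h and 0.07 at 7 h, while of 2 H2B histone genes neither was called (median 0.67). Of 172 ribosomal protein pseudogenes 16 had a lower shift and none a higher one, against 4.21% and 2.83% of all genes. Their median shift was -0.97, with median effects of -0.73 at 14 h and 0.20 at 7 h. Among the 16, Rps12-ps26 and Rpl31-ps7 belong to the 28 low genes that set DMSO 7 h replicates 1 and 2 apart. The 44 ribosomal protein genes had no called shift with all libraries and 5 lower calls without BafA1 14 h replicate 1. Histone copies and pseudogenes share reads with near-identical genes, and the fractional counts above depend on how such reads were divided, so these values are uncertain.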
